A study of Drosophila melanogaster with 2 samples.

Results

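The genes described here encode the machinery that copies DNA in S phase. Members were the rows of the deposited table whose gene symbol was on a list of 38 replication genes, and 37 of these were found among 13989 genes. The remaining gene, DNA-ligI, was in the table under its annotation number CG5602 and is given apart from the 37. Levels came from RNA sequencing of wing discs, the epithelial sacs of the larva from which the adult wing develops, taken from wandering third-instar Drosophila melanogaster larvae kept at 25 °C. The control genotype, en>GFP (GFP below), used the engrailed driver to express green fluorescent protein, and the other genotype, en>GFP,Tai (GFP_Tai below), expressed Taiman (Tai) as well, a transcriptional coactivator of the ecdysone receptor. Both groups therefore carried the driver and GFP. The driver acts in the posterior compartment, while whole discs, 80 to 100 per genotype, were pooled, so each value averages over posterior and anterior cells.

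Replication starts where the origin recognition complex (ORC) sits on DNA and, with Cdc6 and Cdt1, loads the ring-shaped Mcm2-7 helicase in G1. In S phase CDC45 and the GINS complex join the ring to make the active helicase, polymerase alpha lays primers, and polymerases delta and epsilon extend them on a sliding clamp placed by a clamp loader. In flies, many of these genes are known to be transcribed under the control of E2F and of the factor Dref, in cells that prepare for or pass through S phase.

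The data comprised 1 sample record, called a library below, and 1 value per gene for each genotype. Values are in FPKM, the fragment number scaled to transcript length and library size. Whether a value combines replicates is not given. The design text of the series speaks of triplicates, but separate replicate values were not analysed here, so no difference has a replicate check and no test of the genotypes was made. The tai gene itself had 27.1 FPKM in GFP and 879 FPKM in GFP_Tai. All 18 wing disc genes on a marker list had at least 11.8 FPKM in both libraries, with summed levels of 1119 and 1130 FPKM. Single markers moved both ways, such as inv (39.0 FPKM in GFP and 53.2 in GFP_Tai) and rn (34.8 and 25.6). The depth, estimated from the low values of the table, was 8118304 fragments for GFP and 10607524 for GFP_Tai. The 95% counting intervals given with the FPKM ratios were exact, from the split of the estimated fragments between the libraries, and cover counting error only. In RNA from whole discs, fewer cells in S phase and less RNA per cell cannot be told apart.

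All 37 replication genes had lower values in GFP_Tai than in GFP, by a modest amount that differed between genes. Their log2 differences, GFP_Tai minus GFP on the log2(FPKM + 1) scale, ran from -0.83 for the GINS gene Sld5 to -0.12 for the polymerase gene DNApol-delta, with a median of -0.45. Over the 8275 genes with at least 1 FPKM in either genotype, the median was -0.02 and 53.8% lay below 0. A difference of at least 1.2-fold downward was reached by 33 of the 37, where 17.1% of all genes reached it, or 16.3% of genes with at least 5 FPKM in either genotype. No member was 1.2-fold higher, against 19.2% of all genes. At 1.5-fold, 7 members were lower, against 3.93% of all genes, and at 2-fold none was, against 1.81%. The 7 were Sld5, RnrS, mus209, Mcm3, lat, RfC3 and Mcm7. The counting interval of the FPKM ratio lay wholly below 1 for 35 of the 37, and for 24.9% of all genes with a fragment estimate. The exceptions were Orc6 and DNApol-delta, whose intervals included equal values.

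**Figure D1:**
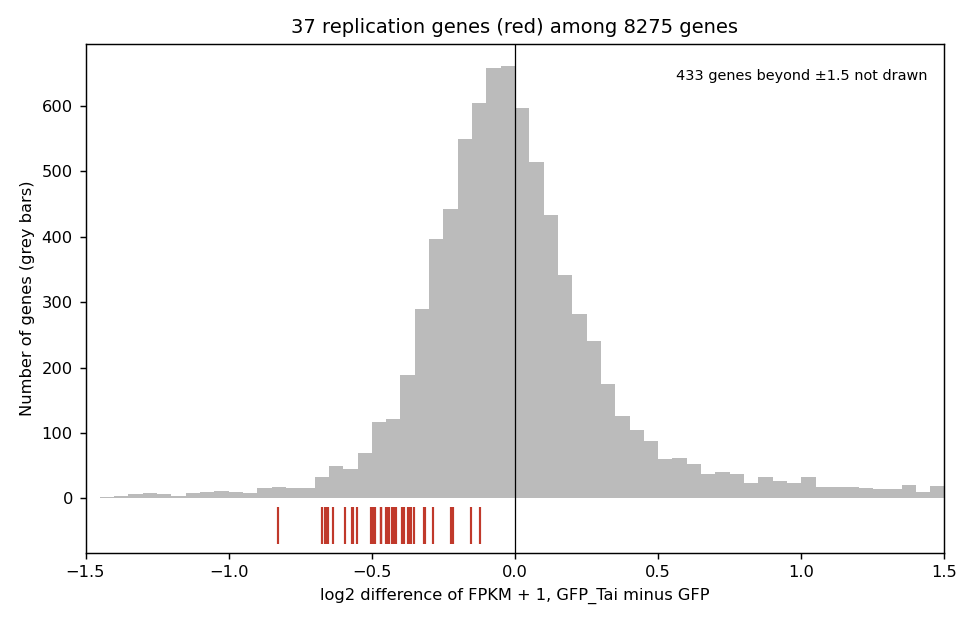
Log2 difference of FPKM + 1 between GFP_Tai and GFP on the horizontal axis, with grey bars for the number of genes among 8275 in each step and a red tick for each of the 37 replication genes. The ticks lie between -0.83 and -0.12, left of the centre of the grey bars at -0.02; 433 genes beyond the axis are not drawn.

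In the authors' deposited table, all 37 members had been tested and none was called, and their p-values ran from 0.327 to 0.9249, with a q-value of 0.999524 for each. That table called 11 genes in all. Together the members held 34075 estimated fragments in the GFP library and 32171 in the deeper GFP_Tai library, which gave a pooled FPKM ratio of 0.723 (interval 0.712 to 0.734).

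The first step of replication is carried out by ORC, whose subunit genes had a median level of 15.4 FPKM in GFP and 11.7 in GFP_Tai. In GFP and GFP_Tai the FPKM values were 12.6 and 9.61 for Orc1, 19.6 and 13.7 for Orc2, and 32.0 and 24.3 for Orc4. Orc5 had 18.3 and 14.8 FPKM, and Orc6 had 10.4 and 9.29. The gene lat, which encodes Orc3, had 6.48 and 3.76 FPKM, the lowest level of any member in both libraries. All 6 subunits were lower in GFP_Tai, and 5 of them by at least 1.2-fold. The median log2 difference of the complex was -0.37, with lat at -0.65 and Orc6 at -0.15. The FPKM ratio of lat was 0.580 (interval 0.446 to 0.752), based on about 140 and 106 fragments. That of Orc6 was 0.889 (interval 0.628 to 1.26), from only 64 and 75 fragments, so a difference in this gene was not detectable at this depth. Values of lat are uncertain, since all of its exonic bases (2R:13202728-13206547 in BDGP6, minus strand) are shared with exons of CG34315 in the annotation. Each of the 6 ORC genes overlaps another gene, though for the other 5 at most 5.66% of exonic bases were shared.

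The loading of the helicase is set by Cdt1, encoded by dup, and by its inhibitor geminin. The dup gene had 31.1 FPKM in GFP and 22.2 in GFP_Tai, and the GFP_Tai/GFP ratio was 0.714 (interval 0.640 to 0.796). The inhibitor gene geminin had 157 and 122 FPKM, and the GFP_Tai/GFP ratio was 0.775 (interval 0.710 to 0.847). The intervals of the activator and the inhibitor overlapped. Transcripts of the inhibitor outnumbered those of dup 5.05 to 1 per length in GFP and 5.48 to 1 in GFP_Tai. The gene Cdc6 was not a member, and its ratio was 0.781 (interval 0.653 to 0.934).

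The Mcm2-7 genes encode the ring that unwinds the duplex, and all 6 were at least 1.2-fold lower in GFP_Tai. Mcm7 had 100.3 FPKM in GFP and 66.2 in GFP_Tai, and Mcm3 had 75.7 and 47.6. Mcm5 had 74.1 and 52.5 FPKM, and Mcm6 had 90.6 and 66.6. The gene dpa, which encodes Mcm4, had 87.1 and 64.4 FPKM, and Mcm2 had 67.9 and 51.4. The levels of the 6 subunits thus stayed within 1.48-fold of each other in GFP and within 1.398-fold in GFP_Tai, the narrowest range of any complex with more than 2 members, and every GFP_Tai value was below every GFP value. Mcm2 was the lowest subunit in GFP and Mcm3 the lowest in GFP_Tai. In the order of levels, the counting intervals of neighbours overlapped, except those of Mcm3 and dpa and of Mcm6 and Mcm7 in GFP and those of Mcm5 and dpa in GFP_Tai. The median log2 difference was -0.46. The ratio was lowest for Mcm3, at 0.630 (interval 0.584 to 0.678), and highest for Mcm2, at 0.757 (interval 0.704 to 0.815), and these intervals did not overlap. Of the exonic bases of Mcm7, 81.7% are shared with the antisense RNA gene asRNA:CR45871, and fragments of the partners cannot be told apart without strand. The median Mcm2-7 level was 5.28 times the median ORC level in GFP and 5.02 times in GFP_Tai.

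CDC45 and GINS, which turn the loaded ring into the active helicase, were represented by CDC45L, Psf2 and Sld5. CDC45L, which shares its locus entry in the table with 6 other genes, had 43.1 FPKM in GFP and 31.3 in GFP_Tai, and Psf2 had 24.5 and 18.7. Sld5 had 30.1 and 16.5 FPKM, the lowest ratio of all members at 0.549. Its counting interval of 0.419 to 0.717 was wide, with about 136 and 98 fragments. The interval of Psf2 reached 0.993, from 121 fragments in each library. The interval of Sld5 overlapped those of CDC45L and Psf2. The GINS genes Psf1 and Psf3 were not among the members. Their ratios, 0.831 (interval 0.562 to 1.23) and 0.881 (interval 0.749 to 1.04), had intervals that included equal values.

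**Figure D2:**
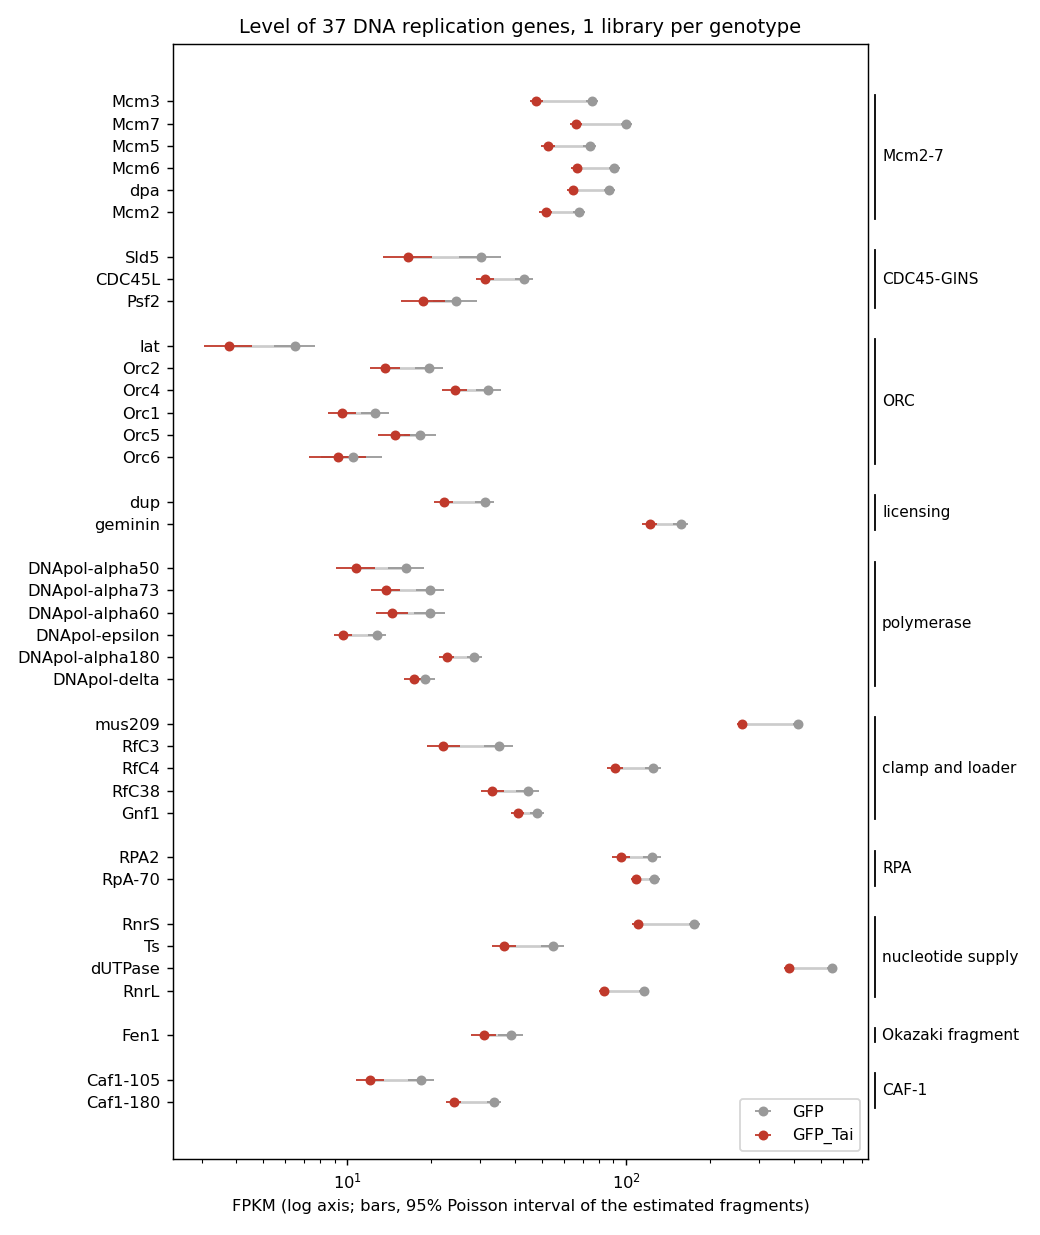
FPKM of each replication gene in GFP (grey) and GFP_Tai (red) on a log axis, grouped by complex and ordered within it by difference; bars are 95% Poisson intervals of the estimated fragments. In each of the 37 genes the red point lies left of the grey one, from 6.48 and 3.76 FPKM for lat to 547 and 385.6 for dUTPase.

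The single-stranded DNA that the helicase exposes is covered by replication protein A (RPA), and of the genes of its 2 listed subunits only RPA2 reached 1.2-fold. RpA-70 had 126 FPKM in GFP and 109 in GFP_Tai, and the GFP_Tai/GFP ratio was 0.860 (interval 0.809 to 0.914). RPA2 had 124 and 96.0 FPKM, and the GFP_Tai/GFP ratio was 0.775 (interval 0.698 to 0.859). The gene RPA3 was not a member, and the interval of its ratio, 0.915 (0.817 to 1.03), included equal values. RpA-70 lies 518 nt from Mcm2 on chromosome 3R and is transcribed away from it, and no other members were within 20000 nt of each other. The interval of Mcm2, 0.704 to 0.815, overlapped that of RpA-70 at its edge.

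Polymerase genes had levels from 9.66 to 28.5 FPKM over both libraries, and 5 of the 6 were at least 1.2-fold lower in GFP_Tai. Polymerase alpha makes the primers, and all 4 of its subunit genes were at least 1.2-fold lower in GFP_Tai. The catalytic subunit gene DNApol-alpha180 had 28.5 FPKM in GFP and 22.7 in GFP_Tai, and DNApol-alpha73, the accessory subunit, had 19.8 and 13.7. The primase genes DNApol-alpha60 and DNApol-alpha50 had 19.8 and 14.5 FPKM and 16.2 and 10.8 FPKM. Among the alpha subunits the log2 difference was largest for DNApol-alpha50, at -0.55, and smallest for DNApol-alpha180, at -0.32. DNApol-epsilon, the catalytic subunit used on the leading strand, had 12.8 and 9.66 FPKM, and the GFP_Tai/GFP ratio was 0.753 (interval 0.676 to 0.838). DNApol-delta, the catalytic subunit used on the lagging strand, had 19.0 and 17.3 FPKM. Its ratio of 0.915 was the highest of all members, and its interval of 0.811 to 1.03, based on about 497 and 594 fragments, included equal values. The intervals of DNApol-delta and DNApol-epsilon overlapped. The polymerase subunit genes Pole2, CG12018 (Pol31) and CG3975 (Pol32) were not members. The ratios of Pole2, 0.689 (interval 0.559 to 0.848), and CG12018, 0.713 (interval 0.604 to 0.841), had intervals wholly below 1. That of CG3975, 0.884 (interval 0.727 to 1.07), had an interval that included equal values.

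The sliding clamp and its loader covered a wide range of levels. The clamp gene mus209, which encodes PCNA, had 412.8 FPKM in GFP and 260.2 in GFP_Tai, and the GFP_Tai/GFP ratio was 0.630 (interval 0.596 to 0.667) based on about 2746 and 2262 fragments. The gene ranked 219th by level among all genes in GFP and 356th in GFP_Tai. The small loader subunit genes RfC4, RfC38 and RfC3 had 125 and 91.4 FPKM, 44.5 and 33.1 FPKM, and 34.9 and 22.1 FPKM. The large loader subunit gene Gnf1 had 47.8 and 40.8 FPKM, and the GFP_Tai/GFP ratio was 0.854 (interval 0.789 to 0.925). Gnf1 thus did not reach 1.2-fold, and its interval lay above those of mus209 and of RfC3, which was 0.526 to 0.761. Of the exonic bases of RfC38, 25.2% are shared with Nup160, and its value is uncertain to that extent. The loader subunit gene CG8142 (RfC2) was not a member, and its ratio was 0.778 (interval 0.674 to 0.898).

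Genes that supply deoxynucleotides had the lowest median of the complexes with more than 2 members, -0.54 on the log2 scale, and all 4 were at least 1.2-fold lower. RnrL and RnrS encode the subunits of ribonucleotide reductase, which makes deoxynucleotides from ribonucleotides. RnrS had 176 FPKM in GFP and 110 in GFP_Tai, and the GFP_Tai/GFP ratio was 0.625 (interval 0.585 to 0.668). RnrL had 116 and 83.3 FPKM, and the GFP_Tai/GFP ratio was 0.720 (interval 0.678 to 0.765), which did not overlap that of RnrS. The small subunit gene was therefore 1.52 times the level of the large one in GFP and 1.32 times in GFP_Tai. The thymidylate synthase gene Ts had 54.5 and 36.5 FPKM. The dUTPase gene, whose product removes dUTP and yields the precursor of thymidylate, had the highest level of any member, 547 and 385.6 FPKM. All exonic bases of dUTPase (2L:11011312-11012135 in BDGP6, plus strand) are shared with the antisense RNA gene asRNA:CR45778, so its value may include fragments of that gene.

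Behind the fork, Fen1 trims the flaps of Okazaki fragments and DNA ligase I joins them. Fen1 had 38.7 FPKM in GFP and 30.8 in GFP_Tai, and the GFP_Tai/GFP ratio was 0.797 (interval 0.688 to 0.922). The ligase gene, matched by synonym as CG5602, had 36.03 and 25.5 FPKM, and the GFP_Tai/GFP ratio was 0.707 (interval 0.631 to 0.792). CAF-1 puts histones onto the new DNA. Its large subunit gene (FBgn0030054) had 33.6 and 24.1 FPKM, and its middle subunit gene Caf1-105 had 18.4 and 12.1. Both were at least 1.2-fold lower, with log2 differences of -0.47 and -0.57 and overlapping intervals.

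**Figure D3:**
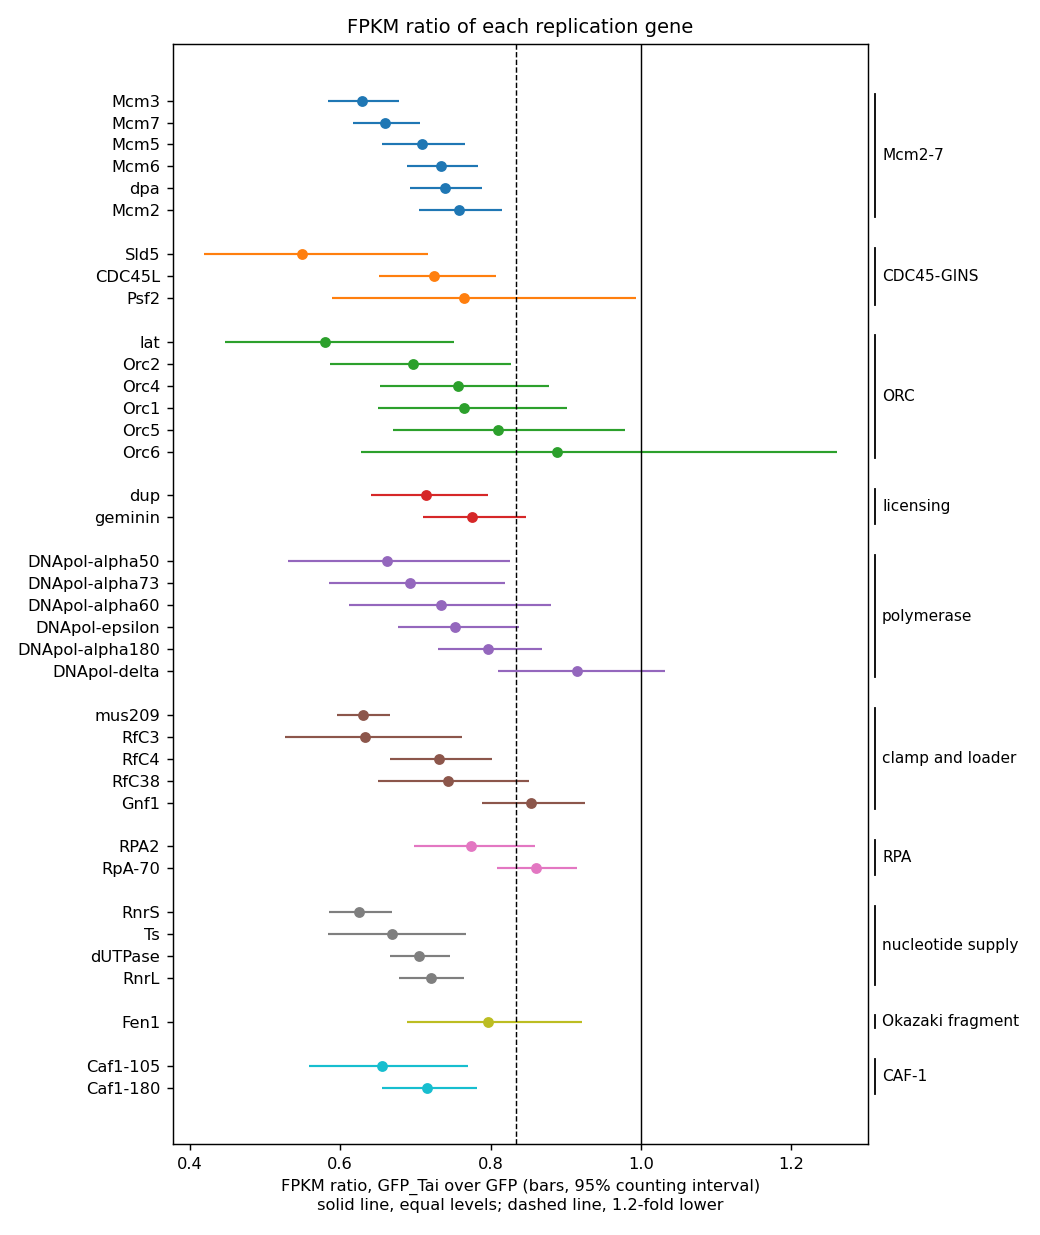
FPKM ratio of GFP_Tai over GFP for each replication gene, coloured and grouped by complex, with bars for the 95% counting interval; the solid line marks equal levels and the dashed line 1.2-fold lower. The bars of Orc6 and DNApol-delta cross the solid line, and the ratios run from 0.549 for Sld5 to 0.915 for DNApol-delta.

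Set side by side, the complexes with more than 1 gene had median log2 differences from -0.29 for RPA to -0.54 for nucleotide supply. These medians and the pooled ratios below cover the listed members only, not every subunit of a complex. Pooling the estimated fragments of each complex gave FPKM ratios of 0.685 (counting interval 0.663 to 0.709) for nucleotide supply, 0.705 (0.686 to 0.726) for Mcm2-7 and 0.704 (0.677 to 0.731) for the clamp and loader. CAF-1 had 0.701 (0.649 to 0.757), CDC45 and GINS had 0.705 (0.643 to 0.774), and ORC had 0.743 (0.688 to 0.802). The licensing genes had 0.7504 (0.701 to 0.803) and the polymerases 0.782 (0.743 to 0.824). RPA had the highest pooled ratio of a complex with more than 1 gene, 0.837 (0.794 to 0.882). The intervals of RPA and of the polymerases lay above those of nucleotide supply, Mcm2-7 and the clamp and loader. That of ORC overlapped that of every other complex. Each pool weighs its genes by fragments, and its interval leaves out the spread between genes. In the clamp and loader, mus209 (ratio 0.630) held about 2746 of the 5550 GFP fragments. The loader genes had ratios from 0.633 for RfC3 to 0.854 for Gnf1. Those of the polymerase genes ran from 0.662 for DNApol-alpha50 to 0.915 for DNApol-delta. The order of the pools thus does not hold for every gene in them.

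Levels spanned 84.5-fold over the members in GFP and 102.7-fold in GFP_Tai, and the order of the members was nearly the same in both (Spearman rho 0.988, Pearson r of log2 FPKM 0.994, n = 37 genes measured in the same 2 libraries). The difference was only weakly related to level (rho -0.149 with the mean log2 FPKM) or to mean transcript length (rho 0.192), each over the 37 genes, as a description. Of the members, 25 had a GFP level above 25.03 FPKM, the median of all genes above the minimum. By difference, 29 of the 37 were in the lowest 10% of all genes and 35 in the lowest 25%. Lower values were found on each of the 5 chromosome arms that hold members, with medians from -0.46 over the 4 genes on X to -0.39 over the 9 on 3R. The 11 members on 2R had a median of -0.43, the 8 on 2L -0.44 and the 5 on 3L -0.45.

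**Figure D4:**
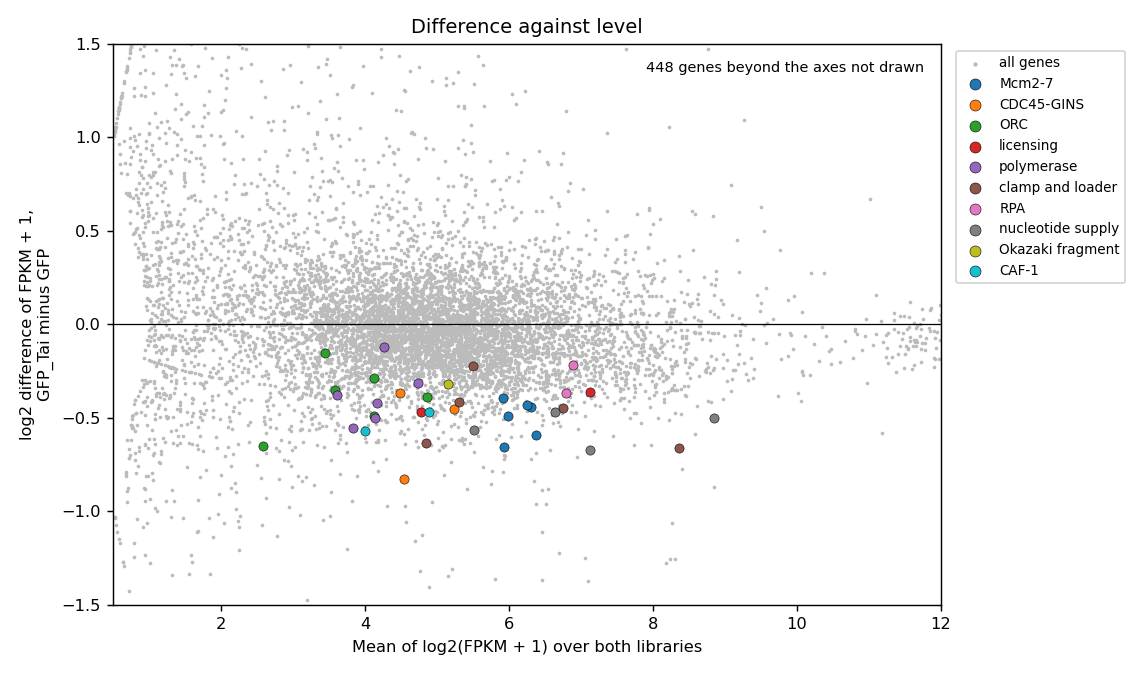
Log2 difference of FPKM + 1 between GFP_Tai and GFP against the mean of log2(FPKM + 1) over both libraries, for genes of at least 1 FPKM in either genotype (grey, those beyond the axes not drawn) and for the 37 replication genes coloured by complex. The coloured points lie below 0 across the range of levels, from lat on the left to dUTPase on the right.

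Replication genes outside the list were also mostly lower in GFP_Tai, with a smaller median difference. Both lists were chosen with earlier results of these data known, so the contrast between them depends on that choice. The list of 35 other replication genes had a median log2 difference of -0.30, with 32 genes below 0, 20 at least 1.2-fold lower and 1 at least 1.2-fold higher. The histone chaperone gene asf1 had 104 FPKM in GFP and 64.2 in GFP_Tai, and the deoxyribonucleoside kinase gene dnk had 56.7 and 35.0. The nucleoside diphosphate kinase gene awd had 2848 and 1906 FPKM, and timeout, the fly relative of mammalian Timeless, had 15.7 and 10.4. These 4 genes were named because they differed most in their list, so they do not stand for it. Their ratios, 0.617, 0.617, 0.669 and 0.666, lay within the range of the members, while that of rec, 1.37, lay above it.

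Regulators of the G1 to S transition and genes of mitosis lay nearer to equal values than the replication genes. Of 19 regulators, 4 reached 1.2-fold downward and 0 upward, and the median log2 difference was -0.16. Those 4 were the Cdk2 gene cdc2c, with 62.6 FPKM in GFP and 44.9 in GFP_Tai, the retinoblastoma family genes Rbf2, with 17.3 and 12.6, and Rbf, with 53.6 and 42.1, and mip120, which encodes a partner of the retinoblastoma proteins, with 28.2 and 22.6. Of 39 mitosis genes, 12 reached 1.2-fold downward and 1 upward, and the median was -0.20. The centromeric histone gene cid had 9.35 and 6.23 FPKM, the kinesin gene ncd had 68.5 and 51.6, the Cdc20 gene fzy had 101.8 and 76.8, and the chromosomal passenger gene Incenp had 110.4 and 83.6. The share at least 1.2-fold lower was 30.8% in that list, 21.1% among the regulators, 57.1% among the other replication genes and 89.2% among the members, against 17.1% of all genes. The share of the regulators at this threshold was thus close to that of all genes. Most genes of both lists were still lower in GFP_Tai. Below 0 lay 37 of the 39 mitosis genes and 15 of the 19 regulators, against 53.8% of all genes. The counting interval of the ratio lay wholly below 1 for 26 of 37 mitosis genes and 10 of 19 regulators, against 24.9% of all genes with a fragment estimate. With 1 library per genotype these differences between lists were not tested.

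**Figure D5:**
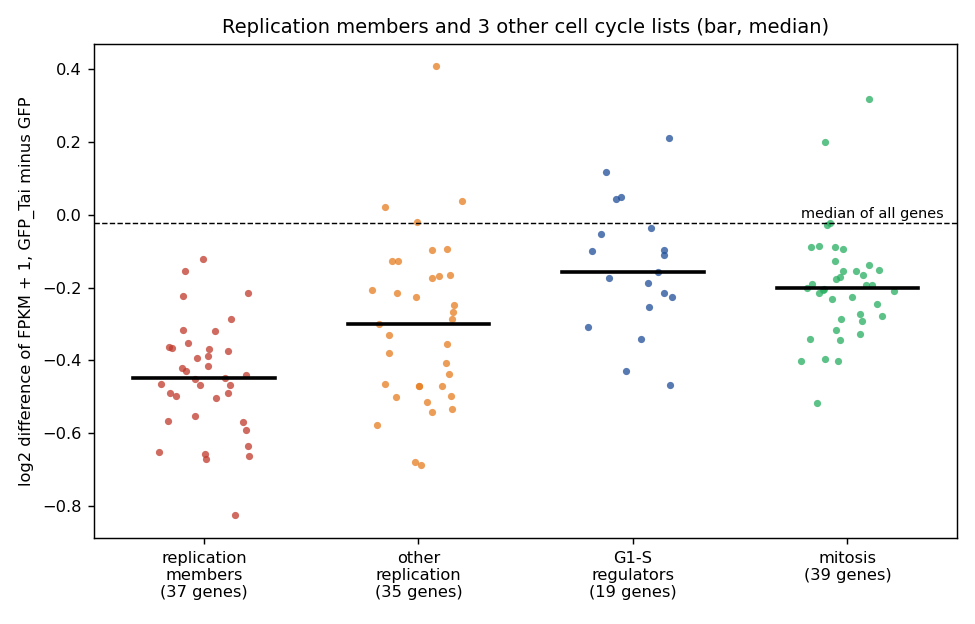
Log2 difference of FPKM + 1 between GFP_Tai and GFP for each gene of 4 lists, with a black bar for the list median and a dashed line for the median of all genes. The medians are -0.45 for the replication members, -0.30 for other replication genes, -0.16 for G1-S regulators and -0.20 for mitosis genes.

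Markers of other cell types that a dissected disc can carry were compared in the same libraries. The summed level of 8 myoblast genes was 173 FPKM in GFP and 171 in GFP_Tai, and that of 6 neuron genes, 2 of which reached 1 FPKM in either library, was 11.2 and 11.6. The 8 tracheal genes summed to 567 and 1457 FPKM, with 7 of 8 at or above 1 FPKM in both libraries. Most of that difference lay in the chitin-related genes verm (259 and 720 FPKM), Gasp (90.9 and 328) and serp (91.1 and 262). The tracheal regulator genes trh, with 21.3 and 20.2 FPKM, and btl, with 3.468 and 3.4504, were nearly equal, kni had 17.8 and 21.2, vvl had 83.3 and 102.1, and rib was near 0 in both. The 10 blood cell genes summed to 37.3 and 48.1 FPKM, with 5 and 9 at or above 1 FPKM, and the 7 fat body genes to 21.8 and 34.2, with Yp1 listed at 0 in GFP. The 8 salivary gland genes summed to 0.786 and 12.3 FPKM, with ng1 and ng2 listed at 0 in both libraries and Sgs7 and Sgs8 listed at 0 in GFP. The part of these markers in the lower replication values was not tested.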

How the data were processed

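Wing disc RNA of 2 genotypes was depleted of ribosomal RNA and sequenced, per the labels' protocols, with 1 sample record each. The table deposited by the authors holds 1 FPKM value per gene and genotype in Cuffdiff's column layout. It also holds the authors' p-value and q-value per gene. Named in the submitters' processing notes, with no roles, are CASAVA 1.4, TopHat2 2.0.12, Cuffdiff 2.2.1 and dm6. How replicates were handled, which annotation was used and whether strand was used is not given in the sources used here.

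Differences were computed with Python 3.11.15 as log2((GFP_Tai FPKM + 1) / (GFP FPKM + 1)). The pseudocount shrinks the differences of low genes. The 8275 genes with at least 1 FPKM in either genotype formed the background. Members and lists were chosen with earlier results of these data known. Every member was described, with tai and the 4 genes of each cell cycle list that differed most.

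Of 13989 genes, 13619 matched the BDGP6 annotation (Ensembl release 115) by symbol or synonym on the same arm. Coordinates come from that annotation, since the table's loci differed from it by a median of 4112496 nt on 2R, 4174279 nt on 3R, 105968 nt on X, 6900 nt on 3L and 1 nt on 2L, although the notes name dm6. The annotation behind the FPKM values is not given, so transcript lengths and exon overlaps from BDGP6 may differ from those used for them. Fragments were estimated from 304 genes that shared 1 ratio of FPKM, 0.765, taken as equal fragment numbers. The step per fragment came from 37 single-transcript genes within 0.5% of each other, after 214 nt was taken off each transcript length. For other genes the mean transcript length was used. The fragment numbers are estimates (the computation was tested on simulated data only) and served only for 95% counting intervals (Clopper-Pearson for ratios, Poisson for levels). No count test was run.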

Additional observations from a re-analysis of the deposited data

How the results depend on the processing

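Recomputing 53 results under other settings gave 282 values. Of these, 270 differed from the reported value by no more than the counting error of the pooled ratio (for counts, 1.5 times), 12 differed by more and none changed sign. All 185 alternative values of single members stayed below 0. This says little, since another pseudocount or minimum cannot change the sign of a gene's difference. Centring could have changed it, but subtracted only -0.02. The number of members at least 1.2-fold lower, 33, became 7 at 1.5-fold and 0 at 2-fold. With a pseudocount of 5, which shrinks low genes, the median log2 difference was -0.41 for the members, -0.31 for the polymerases, -0.23 for other replication genes and -0.18 for mitosis genes, and with a pseudocount of 0.1 it was -0.33 for other replication genes. Centring subtracts the median of all genes, -0.02, and gave -0.42 for the members, -0.28 for other replication genes and -0.18 for mitosis genes. Without the 17 members that overlap another gene, the median was -0.598 for CDC45 and GINS (2 genes) and -0.54 for the clamp and loader (4 genes), and no ORC gene nor Fen1 was left to give a value. Adding CG5602, leaving out the 11 members that share a locus in the table and using no pseudocount were chosen after seeing the data and moved no value past its limit. The planned search of promoters for motifs was not run. With 1 library per genotype, leaving out a library was not possible. Depth limits the values of Orc6, lat, Psf2 and Sld5, which rest on an estimated 64 to 140 fragments in GFP.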

Other observations

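Over the 3 other cell cycle lists, 4 genes had a counting interval of the GFP_Tai/GFP ratio wholly above 1, picked out after their values were seen. The meiotic gene rec, the fly Mcm8, had 6.98 FPKM in GFP and 9.59 in GFP_Tai (ratio 1.37, interval 1.14 to 1.65). The E2F activator gene E2f had 66.4 and 77.1 (1.16, 1.10 to 1.23). The securin gene pim had 44.3 and 55.4 (1.25, 1.07 to 1.46), and SAK, which encodes the centriole kinase Plk4, had 34.2 and 39.4 (1.15, 1.06 to 1.26). These intervals cover counting error only, and the differences have no replicate check.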
